A study of Rattus norvegicus with 20 samples.

Results

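The neurotrophin genes described here were Bdnf, which encodes the ligand brain-derived neurotrophic factor, the receptor genes Ntrk2 (TrkB), Ntrk3 (TrkC) and Ngfr (p75), and Sort1, which encodes sortilin. They were chosen by symbol, and all 5 were found among the 17168 genes listed in each count table. Hippocampal mRNA of 20 female rats, 4 months old, was sequenced in 2 comparisons with 1 library per rat. The genotype comparison held 5 wild-type rats (WTNT) and 5 transgenic rats (TGNT), all untreated and on normal chow. The transgenic line, TgF344-AD, is on a Fischer 344 background and carries human APPsw and PS1-ΔE9, each under the prion promoter, a model of amyloid pathology in which the promoter is not restricted to neurons. The treatment comparison held 4 other untreated TGNT rats and 6 transgenic rats (TGTR) fed diazoxide (DZ, 10 mg/kg per day), an opener of ATP-sensitive potassium channels, together with dibenzoylmethane (DIB, 200 mg/kg per day), a curcumin analog, from day 52 of age. It held no wild-type rats, and DZ and DIB were given together, so their separate effects cannot be told apart. The sample labels name the left hippocampus, whereas the methods of the study name the right. By the same methods rats were put on a restricted diet and trained in a radial arm maze at 4 months, and some of the rats tested there then gave tissue for sequencing. The labels do not state the maze training of these 20 rats.

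Neurotrophins are secreted growth factors of neurons. Brain-derived neurotrophic factor binds TrkB and neurotrophin-3 binds TrkC, and both receptors are tyrosine kinases that signal through adaptor proteins to the ERK, PI3K-AKT and phospholipase C pathways. The p75 receptor binds every neurotrophin and, with sortilin as a partner, the uncleaved proneurotrophins. In the hippocampus Bdnf is made mainly by excitatory neurons, dentate granule cells among them, its transcription follows neuronal activity, and it supports synaptic plasticity. Astrocytes also express Ntrk2, mostly as a form without the kinase.

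Bdnf is transcribed from several promoters, and the count table sums their transcripts under 1 symbol. RefSeq sequences (GRCr8) gave 6 windows for Bdnf, from 250 bases before to 50 bases after a transcript start, a pair of which overlap, and 1 window for Sort1. Both strands were searched for 4 motifs. CACGTCA, a calcium-response motif, was found in 1 of 6 Bdnf windows and in 1.81% of all 33469 rat windows, and the shorter CGTCA, which lies inside it, in 1 of 6 and 21.2%. CACGTG was found in 1 of 6 Bdnf windows and in 6.42% of all windows, and TGACGTCA, the full cyclic AMP response element, in 0 of 6 and 1.83%. The Sort1 window held 0 of the 4 motifs. The stretch below, the 250 bases before the start in the Bdnf window with CACGTCA, is shown because neuronal activity is known to act on Bdnf transcription through such motifs. It lies at chr3:116637608-116637857 on the + strand, and the capitals mark the motif, which begins 37 bases before the start.
Bdnf promoter window: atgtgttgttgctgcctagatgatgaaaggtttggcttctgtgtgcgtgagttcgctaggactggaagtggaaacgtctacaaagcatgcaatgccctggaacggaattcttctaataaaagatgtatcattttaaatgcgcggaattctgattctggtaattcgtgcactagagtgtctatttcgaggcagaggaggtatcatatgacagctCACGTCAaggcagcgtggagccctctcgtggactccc
Since reads were summed over all Bdnf transcripts, the counts do not tell which of these promoters was in use.

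Levels are given as RPM, the read counts that the authors scaled to a common library size, and only within a table, because the tables were normalized separately. Library totals ran from 5848458 to 9926088 estimated counts in WTNT and from 6610498 to 8117561 in TGNT rats, and from 11151973 to 13481985 in TGNT and from 9215039 to 14175594 in TGTR rats of the treatment table. App, which collects the reads of the rat gene and of the transgene, measured 1101 ± 47.5 RPM (SD, n = 5) in WTNT and 2187 ± 122 RPM (SD, n = 5) in TGNT rats with no overlap, so the genotype labels held. Marker genes of neurons were high in every rat (summed RPM of 8 genes from 7084 to 10792). In the treatment table TGTR replicate 5 stood apart, with a summed RPM of 2830 for 7 choroid plexus genes against 8.54 to 22.7 in the others but for TGTR replicate 6 with 138, and of 1877 for meninges genes against at most 327 in the other 9 rats. Values of the 5 genes under treatment are therefore also given without replicate 5, and those of the pathway lists by their counts.

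Fold changes are log2 ratios fitted to the counts with the quasi-likelihood test of edgeR, with p-values adjusted over all 17168 genes, and calling a gene took an adjusted p under 0.05 with at least a 1.5-fold difference. Of the 5 neurotrophin genes, 0 were called between WTNT and TGNT rats, where 0.0116% of all genes were called (2 genes). Between TGNT and TGTR rats 0 were called, as were 0 of all genes, a share of 0%, although 843 genes (4.91%) had an unadjusted p under 0.05, DESeq2 called 3 genes and edgeR's likelihood ratio test 5. None of the 5 was among the genes called with DESeq2, the likelihood ratio test, limma or any other setting tried. The groups overlapped for each of the 5 genes in both comparisons, while 0.652% and 1.46% of genes averaging at least 10 counts had groups that did not overlap. In each comparison 4 of 5 were lower in the second group and 1, Ngfr, was higher. Among genes with at least 10 counts, 47.6% were lower in TGNT than in WTNT rats and 49.9% were lower in TGTR than in TGNT rats. The median log2 fold change of the 5 genes was -0.07 in the genotype and -0.04 in the treatment comparison, against 0.0063 and 0.00025 for those genes. In bulk hippocampus, fewer cells of a type and less RNA per cell cannot be told apart.

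**Figure D1:**
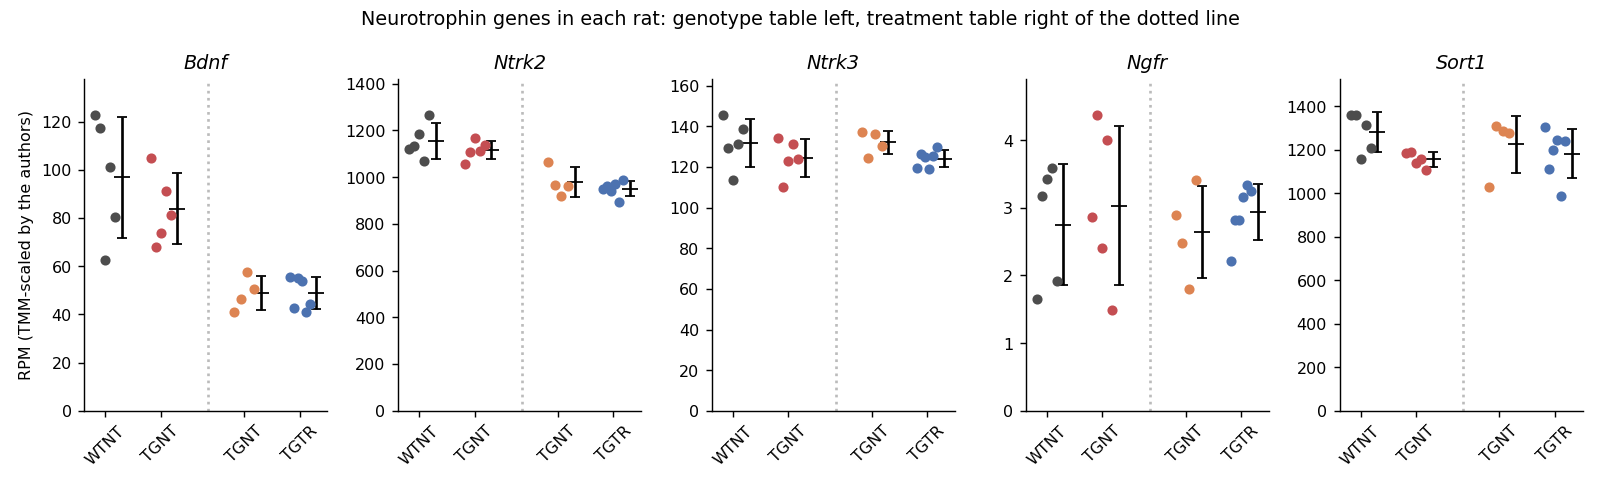
RPM of each neurotrophin gene (vertical axis, from 0, own scale per gene) in every rat of the 4 groups, 1 point per rat, with the mean and SD beside the points. The genotype table is left and the treatment table right of the dotted line, and levels are not comparable across it. The groups overlap in every panel, and Bdnf ranges from 62.8 to 123 RPM within WTNT alone.

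Bdnf, the ligand gene, varied widely between rats of the same group. It measured 123, 117, 62.8, 101 and 80.3 RPM in WTNT replicates 1 to 5 and 105, 68.2, 73.8, 91.4 and 81.1 RPM in TGNT replicates 1 to 5. The lowest and the highest of the 10 values were both WTNT rats, and the TGNT rats lay between them. The means were 96.9 ± 25.2 RPM (SD, n = 5) and 83.9 ± 14.6 RPM (SD, n = 5), with a log2 fold change of -0.20 (SE 0.158, 95% interval -0.54 to 0.14, adjusted p = 1). An exact permutation test of the RPM, two-sided, gave p = 0.341, where 5 rats against 5 allow no p below 0.00794. The interval spans fold changes from 0.689 to 1.10, and a change of 1.5-fold in either direction lies outside it. The value depended on single rats. Without WTNT replicate 3, the rat with the lowest Bdnf, the log2 fold change was -0.34 (unadjusted p = 0.019, adjusted p = 0.778). It was -0.11 without WTNT replicate 1, -0.12 without WTNT replicate 2 and -0.29 without TGNT replicate 1.

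Bdnf was at the same level with and without DZ/DIB to within the spread between rats of the treatment table. It measured 41.2, 46.3, 57.6 and 50.5 RPM in TGNT replicates 1 to 4, and from 41.0 to 55.5 RPM with a median of 49.1 RPM in the 6 TGTR rats. The TGTR values lay within those of TGNT but for the lowest one. The means were 48.9 ± 6.96 RPM (SD, n = 4) and 48.8 ± 6.74 RPM (SD, n = 6), and the fitted log2 fold change was -0.00055 (SE 0.109, 95% interval -0.24 to 0.24, adjusted p = 1). The exact permutation test, two-sided, gave p = 0.967 (smallest possible 0.00476). The interval corresponds to fold changes from 0.849 to 1.18. Without TGTR replicate 5 the log2 fold change was 0.04.

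Ntrk2 encodes TrkB, the receptor of brain-derived neurotrophic factor, and was among the steadier genes measured. It lay at 1120, 1135, 1187, 1068 and 1267 RPM in WTNT replicates 1 to 5 and at 1058, 1109, 1166, 1112 and 1139 RPM in TGNT replicates 1 to 5. All TGNT values but the lowest fell inside the WTNT range. Its log2 fold change was -0.04 (SE 0.0578, 95% interval -0.17 to 0.08, adjusted p = 1), and the fold interval of 0.892 to 1.06 leaves room for only small differences. With and without treatment Ntrk2 measured 1066, 969, 918 and 963 RPM in TGNT replicates 1 to 4 and from 894 to 988 RPM, with a median of 956 RPM, in TGTR rats. TGNT replicate 1 was the highest of these 10 rats and the other TGNT rats lay among the treated ones. The log2 fold change was -0.04 (SE 0.0512, 95% interval -0.15 to 0.07, adjusted p = 1), or -0.02 without TGTR replicate 5. Its estimated counts were fractions in all rats, so some Ntrk2 reads were shared out with other genes.

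Ntrk3, the gene of the neurotrophin-3 receptor TrkC, differed little by genotype. WTNT replicates 1 to 5 measured 146, 130, 114, 131 and 139 RPM and TGNT replicates 1 to 5 measured 134, 110, 123, 131 and 124 RPM. The groups covered nearly the same range, with a log2 fold change of -0.07 (SE 0.0735, 95% interval -0.23 to 0.08, adjusted p = 1). The untreated TGNT rats of the treatment table, replicates 1 to 4 measured 137, 125, 136 and 130 RPM, and the TGTR rats lay from 119 to 130 RPM with a median of 125 RPM. A group of 3 TGNT rats lay above every treated rat, but TGNT replicate 2 was inside the treated range. The log2 fold change was -0.09 (SE 0.0453, 95% interval -0.19 to 0.01, adjusted p = 0.99), with p = 0.0667 in an exact two-sided permutation test. This was the lowest p of the 5 genes under treatment and it missed the threshold also without adjustment. The log2 fold change was -0.09 without TGTR replicate 5. The unadjusted p fell under 0.05 in 4 of 18 alternatives, limma on log2 RPM with either pseudocount and the fits without TGNT replicate 2 or TGTR replicate 6, with adjusted p-values of at least 0.799 over all 18.

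Ngfr encodes p75, which binds all neurotrophins, and was near the lower end of what these libraries resolve. It measured 1.66, 3.17, 3.42, 3.58 and 1.91 RPM in WTNT replicates 1 to 5 and 2.87, 4.37, 2.41, 4.00 and 1.5 RPM in TGNT replicates 1 to 5. Both groups spread over the same range, from 9.68 to 31.5 estimated counts in WTNT and from 11.6 to 29.8 in TGNT rats. The log2 fold change was 0.11 (SE 0.298, adjusted p = 1), and its 95% interval from -0.52 to 0.74, a fold change of 0.695 to 1.67, reaches past 1.5-fold upward. The direction itself turned when single rats were left out, to -0.06 without TGNT replicate 2, -0.03 without TGNT replicate 4 and -0.02 without WTNT replicate 1. Among rats of the treatment table Ngfr measured 2.89, 2.48, 1.80 and 3.41 RPM in TGNT replicates 1 to 4 and from 2.21 to 3.33 RPM with a median of 2.99 RPM in TGTR rats. The treated values all lay inside the untreated range, and the log2 fold change was 0.15 (SE 0.197, 95% interval -0.27 to 0.58, adjusted p = 1), or 0.12 without TGTR replicate 5. It fell to 0.00066 without TGNT replicate 3 and rose to 0.29 without TGNT replicate 4. A difference in Ngfr was not detectable at this depth, and its counts were fractions in every rat, so its level is uncertain. Basal forebrain cholinergic neurons, a known source of p75, have their cell bodies outside the hippocampus. The summed level of their 5 listed markers lay, in the genotype table, between 7.35 and 10.2 RPM for WTNT and between 7.99 and 10.7 RPM for TGNT rats, and in the treatment table from 6.68 to 9.46 RPM for TGNT and 5.72 to 8.58 RPM for TGTR rats. Lhx8 and Gbx1 were at 0 in all rats of the genotype table, and the part of these cells in the Ngfr values was not tested.

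Sort1, the gene of sortilin, had the lowest unadjusted p of the 5 genes by genotype. It measured 1361, 1359, 1158, 1314 and 1210 RPM in WTNT replicates 1 to 5 and 1188, 1189, 1140, 1160 and 1109 RPM in TGNT replicates 1 to 5. A group of 4 WTNT rats lay above every TGNT rat, and WTNT replicate 3 lay among the TGNT rats. The means were 1280 ± 91.8 RPM (SD, n = 5) and 1157 ± 33.7 RPM (SD, n = 5). The log2 fold change was -0.14 (SE 0.0581, 95% interval -0.26 to -0.02), a fold change between 0.833 and 0.989, so even its lower bound is far from 1.5-fold. The unadjusted p was 0.0291 and the exact two-sided permutation test of RPM gave p = 0.0397, but the adjusted p over all genes was 1. At an unadjusted p under 0.05, 1 of the 5 genes stood beside 3.23% of all genes (3.89% of those with at least 10 counts). The unadjusted p stayed under 0.05 in 13 of 18 alternatives and ranged from 0.0048 without WTNT replicate 3 to 0.08 without WTNT replicate 2.

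With DZ/DIB Sort1 did not differ beyond the spread between rats. TGNT replicates 1 to 4 measured 1030, 1309, 1288 and 1276 RPM, with replicate 1 far below the others, and TGTR rats lay from 990 to 1304 RPM with a median of 1218 RPM. The groups covered nearly the same range. Treatment gave a log2 fold change of -0.05 (SE 0.0839, 95% interval -0.23 to 0.13, adjusted p = 1), with p = 0.567 in an exact two-sided permutation test. It was -0.12 without TGNT replicate 1 and -0.0026 without TGTR replicate 5.

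**Figure D2:**
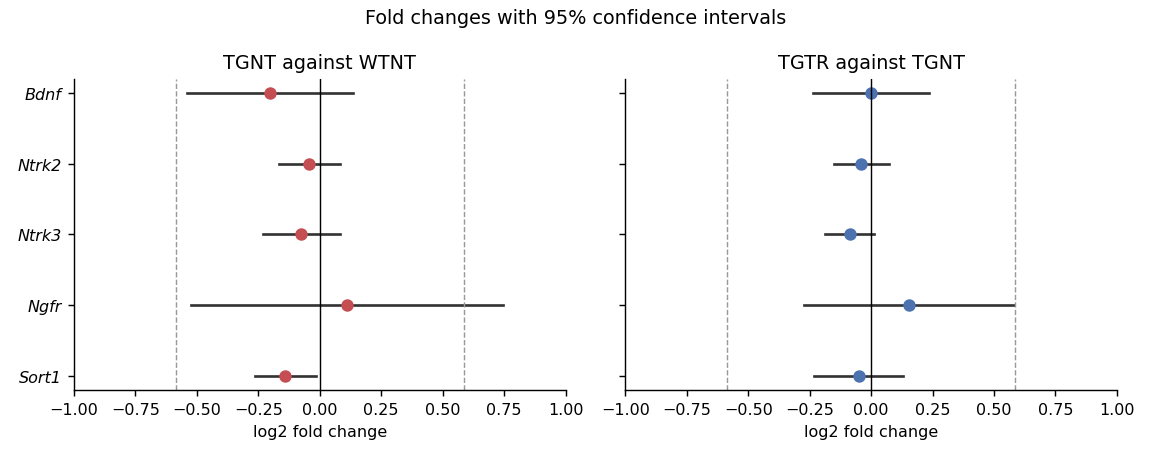
Log2 fold change (horizontal axis) of each neurotrophin gene with its 95% confidence interval, TGNT against WTNT on the left and TGTR against TGNT on the right, from edgeR fits to the counts. The dashed lines mark a 1.5-fold change, and the Ngfr interval in the genotype comparison, from -0.52 to 0.74, is the only one of the 10 that crosses a dashed line.

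The genes differed in how far rats of 1 group were apart. As the SD of log2 RPM around the group means, the spread in the genotype table was 0.328 for Bdnf, at percentile 89.4 of genes with at least 10 counts, and 0.410 for Ngfr, at percentile 95.6. It was 0.0773 for Ntrk2 and 0.0789 for Sort1, at percentiles 8.88 and 9.48, and 0.119 for Ntrk3, at percentile 29.7, with a median over all such genes of 0.162. Bdnf and Ngfr were thus among the more variable genes and Ntrk2 and Sort1 among the steadier ones. These percentiles make no allowance for the number of counts. Ngfr had at most 31.5 estimated counts in a rat of the genotype table, and Sort1 at least 7597. The part of counting noise in the Ngfr spread was not tested in either table. In the treatment table the spread was 0.198 for Bdnf, 0.211 for Ngfr, 0.0699 for Ntrk2, 0.0553 for Ntrk3 and 0.151 for Sort1, with a median of 0.130. Sort1 was there past the middle of all genes, at percentile 59.0, and Bdnf and Ngfr were again high, at percentiles 73.6 and 76.5.

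The spread of Bdnf moved with that of dentate gyrus marker genes. The list held Prox1, a transcription factor of granule cells that some interneurons also express, C1ql2, a secreted synaptic protein of mossy fibres, and Lct and Tdo2, which were near 0. Prox1 made up 87.7% of the summed RPM in the genotype and 77.1% in the treatment table. The sum was 215, 162, 50.8, 205 and 104 RPM in WTNT replicates 1 to 5 and 202, 103, 106, 116 and 133 RPM in TGNT replicates 1 to 5. WTNT replicate 3, with the lowest Bdnf, had the lowest sum, and WTNT replicate 1, with the highest Bdnf, had the highest. For the treatment table the sum was 109, 160, 199 and 174 RPM in TGNT replicates 1 to 4 and ranged from 96.0 to 215 RPM, with a median of 159 RPM, in TGTR rats. TGTR replicate 5 had the lowest Bdnf and the lowest sum there.

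On log2 values as deviations from the group means, Bdnf and the dentate sum correlated over the 10 rats of the genotype table with Pearson's r = 0.91 (exact permutation within groups, two-sided, p = 0.00257, adjusted p = 0.044) and Spearman's rho = 0.93 (exact p = 0.00153, adjusted p = 0.0917). In the 10 rats of the treatment table r was 0.87 (exact p = 5.79e-05, the smallest the arrangements allow, adjusted p = 0.00694) and rho 0.94 (exact p = 0.000116, adjusted p = 0.0139). Adjustment was over 120 relations, of 5 genes to 12 marker lists in 2 tables, and the relation was singled out after its values were seen. Without the 2 rats farthest from the middle of the sum, WTNT replicates 1 and 3, r was 0.81 in the genotype table. Without TGNT replicate 1 and TGTR replicate 5 it was 0.80 in the treatment table, and without TGTR replicate 5 alone it was 0.85 (exact p = 0.00312). The dentate sum overlapped between the groups of each comparison, and its part in the Bdnf values was not tested.

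**Figure D3:**
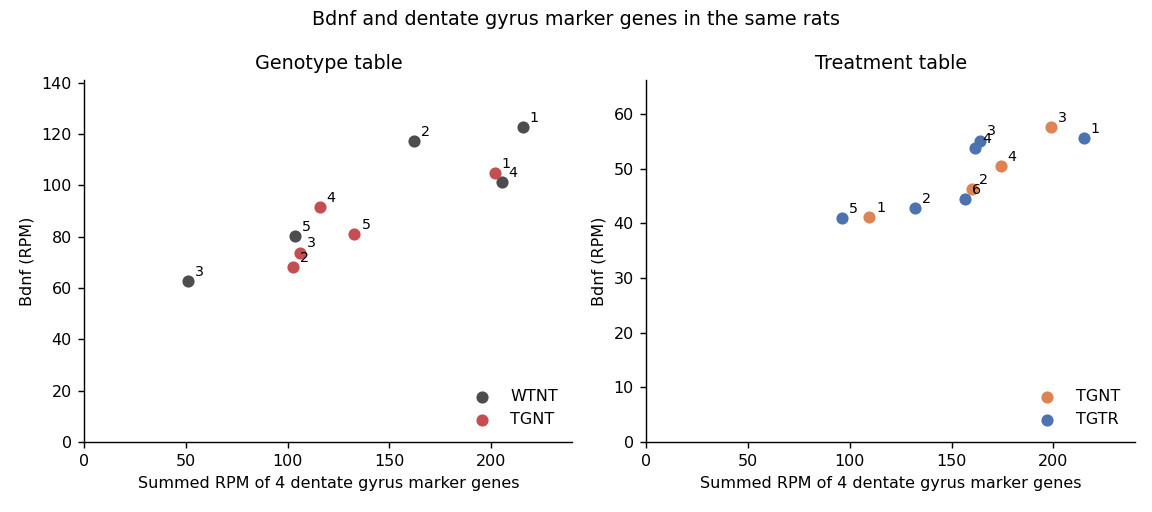
Bdnf RPM (vertical axis) against the summed RPM of 4 dentate gyrus marker genes (horizontal axis) in each rat, numbered by replicate, with the genotype table on the left and the treatment table on the right. In the genotype panel WTNT replicate 3 is lowest on both axes at 62.8 and 50.8 RPM, and the groups intermingle in both panels.

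Of the 120 relations, 7 had an adjusted p under 0.05 for r, and 1 of these, Bdnf with the dentate sum in the treatment table, also for rho. Bdnf correlated with the sum of 4 CA3 marker genes in the genotype table (r = 0.88, exact p = 0.00243, adjusted p = 0.044, and rho = 0.81, exact p = 0.0131, adjusted p = 0.158). That r was 0.74 without the 2 farthest rats. The others concerned Sort1 in the treatment table, with r = 0.94 to the dentate sum (rho = 0.68), 0.92 to the oligodendrocyte sum (rho = 0.83), 0.84 to the CA1 sum (rho = 0.81) and 0.81 to the astrocyte sum (rho = 0.88), each with an adjusted exact permutation p of 0.044 for r and of at least 0.108 for rho. Without the 2 farthest rats these r were 0.78, 0.90, 0.66 and 0.76, in the same order, and without TGTR replicate 5 they were 0.90, 0.92, 0.73 and 0.66. In the genotype table r of Sort1 was only -0.09 to the oligodendrocyte, 0.52 to the CA1 and 0.18 to the astrocyte sum. In the treatment table the corresponding sums overlapped between TGNT and TGTR rats. The oligodendrocyte sum ran from 4133 to 6578 RPM in TGNT and from 4856 to 7448 RPM in TGTR rats, and the astrocyte sum from 5022 to 5457 RPM and from 4511 to 5595 RPM. Their part in the Sort1 values was not tested. Short of the threshold, Bdnf ran against the sum of 7 interneuron marker genes in both tables. There r was -0.82 by genotype and -0.87 under treatment (exact permutation, adjusted p = 0.171 and 0.0833). Without the 2 farthest rats of each table it was -0.42 and -0.86. Sort1 also ran against the interneuron sum, with r = -0.84 by genotype and -0.79 under treatment. Those r were 0.02 and -0.44 without the 2 farthest rats. Sort1 had r = 0.82 to the dentate sum in the genotype table (exact permutation, adjusted p = 0.187), and 0.53 without the 2 farthest rats. Over all rats of a table, the relation of Bdnf to the dentate sum was thus not alone in its size.

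Genes most alike in pattern to each of the 5 were those with the highest Pearson r over the 10 rats in both tables, taken between deviations from the group means and ranked over 11339 genes. For Bdnf these were Kctd4 (r = 0.96 in the genotype and 0.95 in the treatment table), Cstf2t (0.97 and 0.92) and Mtmr12 (0.92 and 0.91). For Ntrk2 they were Shc3 (0.91 and 0.87), a neuronal adaptor of Trk receptors, Aldoc (0.81 and 0.82), a glycolytic enzyme enriched in astrocytes, and Ppap2b (0.81 and 0.84), a lipid phosphatase. For Sort1 they were Rgs14 (0.96 and 0.98), a regulator of G-protein signalling enriched in CA2, Sbf1 (0.96 and 0.98) and Arel1 (0.95 and 0.96). The highest r were lower for Ntrk3, with Ubr1 (0.90 and 0.73), Lrrtm4 (0.86 and 0.70) and the kinase gene Map2k5 (0.74 and 0.66), and for Ngfr, with Ramp3 (0.78 and 0.75), Lmtk2 (0.72 and 0.75) and Cftr (0.71 and 0.75). The points of a table share libraries and dissections, and these r are descriptions with no test.

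The rest of the pathway was read from 7 lists, and 0 of their genes were called in either comparison. Among the other neurotrophins and the sortilin-family receptors, 5 of 7 genes had at least 10 counts, and 0 were higher and 5 lower in TGNT rats (median log2 fold change -0.02), with 1 at an unadjusted p under 0.05. This was Sorl1, an intracellular sorting receptor of APP related to sortilin, with 1024 ± 181 RPM in WTNT and 877 ± 48.4 RPM in TGNT rats (SD, n = 5 each), giving a log2 fold change of -0.22 (adjusted p = 1). Its groups overlapped, and an exact two-sided permutation test of RPM gave p = 0.151. Sorcs1, a related receptor, was at -0.15 (SE 0.101, adjusted p = 1). Under treatment 0 of these 5 genes were higher and 5 were lower, with 0 under 0.05 and a median of -0.04. Sorcs3, another sortilin-family receptor, was at a log2 fold change of -0.09 (SE 0.0761) and Ntf3, the gene of neurotrophin-3, at -0.12 (SE 0.237). These counts turned on single rats. By genotype the median ran to -0.17 without WTNT replicate 5, up to 2 of 5 were higher, and among the fits that left out 1 rat only those without TGNT replicate 4, WTNT replicate 3 or WTNT replicate 5 kept 1 gene under 0.05. Under treatment 2 were higher and 3 lower without TGNT replicate 1, 3 or 4 or without TGTR replicate 5. Ntf4, with 0 to 3 counts per rat, and Nradd were too low to compare.

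Genes that process and release proneurotrophins showed no common direction. By genotype 5 of 11 were higher and 6 lower (median -0.01), with 1 under an unadjusted p of 0.05. This was Plat, the tissue plasminogen activator that helps convert the BDNF precursor, with 62.9 ± 4.53 RPM in WTNT and 54.3 ± 5.18 RPM in TGNT rats (SD, n = 5 each) and a log2 fold change of -0.21 (adjusted p = 1). Mmp9, a matrix protease that also cleaves the precursor, was at a log2 fold change of 0.73 (SE 0.348, adjusted p = 1) with 2.78 ± 1.66 RPM and 4.58 ± 1.70 RPM. It rested on few estimated counts, 7 to 34 in WTNT and 18 to 55 in TGNT rats. Under treatment 7 of 11 were higher and 4 lower (median 0.08), with 2 under 0.05, namely Mmp9 and Serpini1. When rats were left out singly, higher genes under 0.05 ran from 0 without TGNT replicate 2 or 3 to 3 without TGNT replicate 1. Lower genes under 0.05 appeared only without TGTR replicate 2, where there were 2. Mmp9 measured 7.01, 4.54, 2.03 and 3.59 RPM in TGNT replicates 1 to 4 and from 5.00 to 9.17 RPM in TGTR rats, a log2 fold change of 0.67 (SE 0.287, adjusted p = 0.964). TGNT replicate 1 lay among the treated rats and the other TGNT rats below them. The estimated counts of Mmp9 were 27 to 80 in TGNT and 63 to 124 in TGTR rats. Serpini1, neuroserpin, which inhibits tissue plasminogen activator, was at 0.14 (SE 0.0555, adjusted p = 0.964), with 260 ± 12.4 RPM in TGNT (SD, n = 4) and 287 ± 16.8 RPM in TGTR rats (SD, n = 6).

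Below the receptors, differences were few and small. Of 17 Trk adaptor genes, 6 were higher and 11 lower by genotype (median -0.03) and 9 and 8 under treatment (median 0.00087). The only adaptor under an unadjusted p of 0.05 was Ptpn11, the phosphatase SHP2 that couples Trk receptors to the ERK pathway, by genotype. It measured 442, 499, 486, 455 and 407 RPM in WTNT replicates 1 to 5 and from 357 to 417 RPM in TGNT rats, where WTNT replicate 5 lay inside the TGNT range and the other WTNT rats above it, with a log2 fold change of -0.24 (SE 0.0657, adjusted p = 1). Sh2b1, another adaptor, was at -0.17 (SE 0.094), and under treatment the adaptors with the lowest p were Gab1 at 0.17 (SE 0.0857) and Sos1 at 0.09 (SE 0.0512).

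Of 19 genes of the kinase cascades, 10 were higher and 9 lower by genotype (median 0.0013) and 9 and 10 under treatment (median -0.02), with 1 under 0.05 in each. By genotype this was Mapk3, the ERK1 kinase, with 90.8 ± 9.43 RPM in WTNT and 106 ± 7.00 RPM in TGNT rats (SD, n = 5 each) and a log2 fold change of 0.23 (SE 0.0755, adjusted p = 1). Map2k5, the kinase upstream of ERK5, was at 0.20 (SE 0.0978, adjusted p = 1). Under treatment it was Rap1a, a small GTPase of sustained ERK signalling, at 0.15 (SE 0.0548, adjusted p = 0.964). The split between higher and lower kinase genes by genotype turned on single rats, from 5 of 19 higher without TGNT replicate 3 to 14 of 19 without WTNT replicate 3.

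Of 11 partners of p75, 5 were higher and 6 lower in both comparisons, with medians of -0.0023 and -0.02. By genotype 0 were under 0.05, with Traf6, a signalling adaptor of p75, at 0.18 (SE 0.118) and Maged1 at 0.07 (SE 0.0541). Under treatment 1 was under 0.05, Prdm4, a zinc finger protein that binds p75, at 0.13 (SE 0.0566, adjusted p = 0.974), and Ngfrap1 was at -0.09 (SE 0.059). Of 15 regulators of Bdnf transcription, 4 were higher and 11 lower by genotype (median -0.04), with 0 under 0.05. The lowest p there belonged to Camk4, a calcium-dependent kinase that acts on CREB, at -0.42 (SE 0.217, adjusted p = 1), and to Rest, a repressor of neuronal genes, at -0.21 (SE 0.125). Under treatment 10 were higher and 5 lower (median 0.04), with 1 under 0.05. This was Bhlhe40, a repressor that binds a Bdnf promoter, with 72.1, 57.7, 57.3 and 65.7 RPM in TGNT replicates 1 to 4 and from 69.7 to 83.4 RPM in TGTR rats, so only TGNT replicate 1 lay among the treated rats. Its log2 fold change was 0.29 (SE 0.0732, adjusted p = 0.871). Npas4, an activity-induced factor that acts on Bdnf promoters, was at 0.71 (SE 0.346, adjusted p = 0.99) under treatment and at 0.31 (SE 0.272) by genotype. It was counted among these regulators and not among the activity-induced genes below.

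Of the genes induced by BDNF or by neuronal activity, 0 of 13 were called, and most lay in 1 direction in each comparison. By genotype 12 of 13 were lower in TGNT rats and 1, Dusp1, was higher. The median log2 fold change was -0.28, and 8 of 13 had an unadjusted p under 0.05, against 3.89% of genes with at least 10 counts. The 7 lower ones were Vgf, Arc, Egr1, Fosb, Dusp4, Dusp6 and Nr4a1. Nr4a1, an orphan nuclear receptor, measured 51.5, 56.2, 41.1, 49.5 and 36.8 RPM in WTNT replicates 1 to 5 and 33.6, 36.8, 30.7, 34.3 and 35.3 RPM in TGNT replicates 1 to 5. WTNT replicate 5 and TGNT replicate 2 were nearly level and the other WTNT rats lay above, with a log2 fold change of -0.46 (SE 0.105, adjusted p = 1) and the smallest exact two-sided permutation p that 5 rats against 5 allow, 0.00794. Egr1, an immediate early transcription factor, measured 52.0 ± 11.5 RPM in WTNT and 34.9 ± 4.35 RPM in TGNT rats (SD, n = 5 each), a log2 fold change of -0.58 (SE 0.138, adjusted p = 1). When rats were left out singly, 11 or 12 of 13 were lower and from 5 to 8 of them were under 0.05. The list was chosen with earlier results of these data known, and its genes were measured in the same libraries. Its counts beside the share of all genes are therefore no test of the list.

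Under treatment the same list lay the other way, with 12 of 13 higher in TGTR rats, 7 of 13 at an unadjusted p under 0.05 against 6.14% of genes with at least 10 counts, and a median of 0.26. The 7 were Vgf, Arc, Egr1, Fos, Fosb, Dusp1 and Homer1. Homer1, a postsynaptic scaffold gene with an activity-induced short form, measured 133, 124, 129 and 139 RPM in TGNT replicates 1 to 4 and from 137 to 156 RPM in TGTR rats. Only TGNT replicate 4 reached into the treated range, and the log2 fold change was 0.19 (SE 0.0496, adjusted p = 0.913). Dusp1, a phosphatase that switches off MAP kinases, was at 0.60 (SE 0.203, adjusted p = 0.964) under treatment and at 0.49 (SE 0.158, adjusted p = 1) by genotype, so it was higher in the second group both times. Without TGTR replicate 5 the count under 0.05 was 10 of 13, and without TGNT replicate 3 it was 4. The limits of the list given for the genotype comparison hold for these counts too. The TGNT rats of the tables are different animals. Whether maze training before tissue was taken differed between the groups cannot be told from the labels. Bdnf, itself a gene induced by activity, was at -0.20 by genotype and -0.00055 under treatment in the same fits.

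Without TGTR replicate 5, treatment left 6 of 11 processing genes, 11 of 17 adaptors, 11 of 19 kinase cascade genes, 5 of 11 partners of p75, 11 of 15 regulators and 13 of 13 activity-induced genes higher. The counts under an unadjusted p of 0.05 were then 2, 1, 1, 0, 1 and 10, in the same order.

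**Figure D4:**
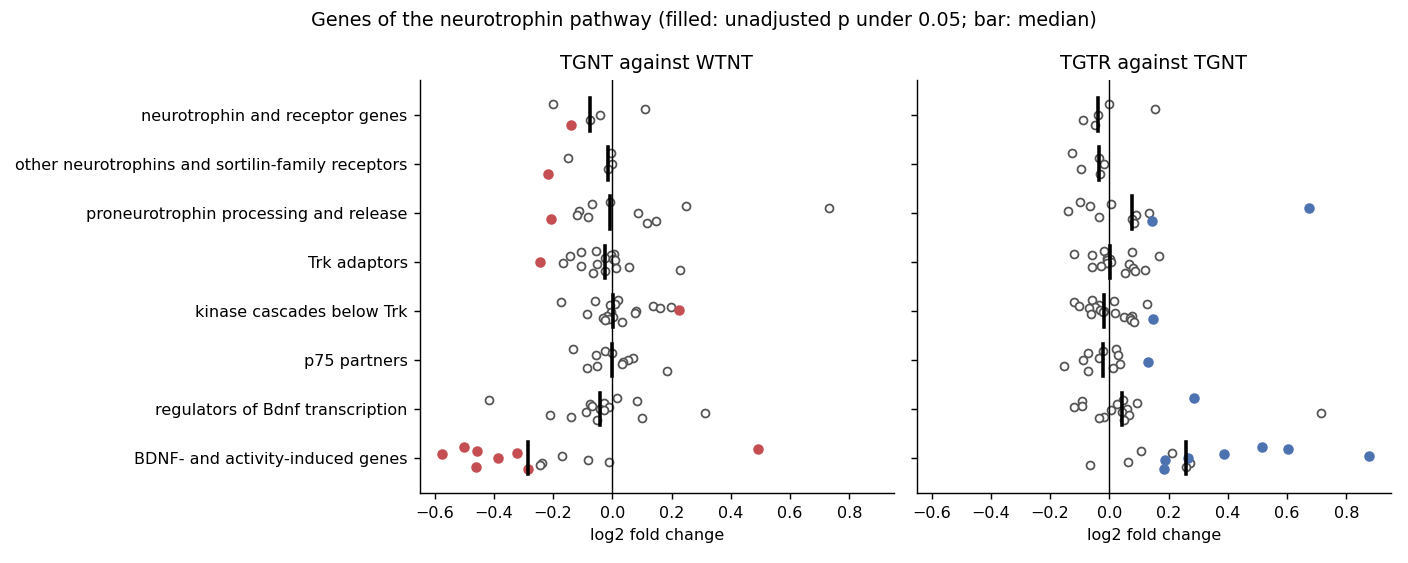
Log2 fold change (horizontal axis) of every gene with at least 10 counts in the neurotrophin genes and the 7 pathway lists (rows), TGNT against WTNT on the left and TGTR against TGNT on the right. Filled points have an unadjusted p under 0.05, none is called after adjustment, and black bars are the medians, which for the activity-induced genes are -0.28 and 0.26.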

How the data were processed

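Stranded poly(A) libraries were made from hippocampal RNA, 1 per rat. The authors deposited, for each comparison, a table of estimated counts from RSEM, not normalized, and a table of RPM, a signal scaled by TMM factors over the rats of that table. The submitters' processing notes name bcl2fastq 2.17, Bowtie2 2.1.0, RSEM 1.2.15, edgeR and the genome build rn6, with no role or order. RSEM divides reads that match several genes, and among the 5 genes the counts of Ntrk2 and Ngfr were fractions in all rats and that of Bdnf in 1. Both tables list 17168 symbols, and 0 columns were left without a sample.

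Estimated counts were rounded and fitted in each comparison by itself with TMM factors and the quasi-likelihood test of edgeR 4.0.16 in R 4.3.3, over all genes, with two-sided p-values and Benjamini-Hochberg adjustment. Spread and likeness used log2 values with 1 added. Exact permutation tests of RPM and of correlations within groups used Python 3.11.15 with numpy 2.4.6. The labels do not say whether rats shared litters, so p-values measure the spread between these rats. On simulated counts with 200 genes changed 2-fold, the quasi-likelihood test found 98.5% of them in the genotype and 96.5% in the treatment design, with 3.9% and 2.53% of calls false. The changed genes were drawn only from those with mean counts above that of Ngfr. The shares therefore do not cover Ngfr or changes smaller than 2-fold.

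The 5 genes, the 7 pathway lists and the 12 marker lists were chosen with earlier results of these data known. Named are the 5 genes, in each pathway list and comparison the 2 genes with the lowest p among those with a mean of at least 10 counts, and the 3 genes most alike to each of the 5. Others named in a count were chosen after their values were seen. Ngfrap1 is the table's symbol for Bex3. Some genes of the pathway, 1 that this rule selects among them, are not reported here. Alternatives were DESeq2 1.42.0, edgeR's likelihood ratio test, limma 3.58.1 on log2 RPM with 1 or 0.1 added, RLE factors, library size only, filterByExpr, a replicate block and leaving out each rat. Leaving out rats for list counts and for relations between genes was added after the data were seen.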

Additional observations from a re-analysis of the deposited data

Results flagged for a closer look

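Sort1 in TGNT replicate 1 of the treatment table measured 1029.89 RPM, while the nearest other TGNT rat was at 1276 RPM and the highest at 1309 RPM, so its gap to the nearest rat took up most of the range of the group. It was the 1 value found far from the other rats of its group among 20 groups of values tested, and chance alone gives about 1 in 20. The same rat had the highest Ntrk2 (1066 RPM), the lowest Bdnf (41.2 RPM) and the lowest dentate gyrus sum (109 RPM) of the untreated rats in that table.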

How the results depend on the processing

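None of the 5 genes was called in any of the 18 alternatives of either comparison. The number of genes called over the whole table was 2 by genotype, 4 with the likelihood ratio test, and 2 in every fit that left out a rat; under treatment it was 0, 3 with DESeq2, 5 with the likelihood ratio test, 1 with a replicate block, and 0 in every fit that left out a rat. Rats with the same replicate number did not deviate together throughout (r from -0.21 to 0.34 by genotype and from -0.58 to 0.14 under treatment), so the numbers were not taken as a pairing. WTNT replicates 1 and 3 were closest to the TGNT rat of their own number, with r = 0.34 and 0.16. Their highest r to a TGNT rat of another number was -0.04 and 0.13. In every other pair a rat of another number was closer. The replicate block left 2 genes called by genotype and turned the log2 fold change of Bdnf under treatment from -0.00055 to 0.088. That value was 0.034 with library sizes alone, a scaling that moved the median of all genes to 0.04. Leaving out single rats gave ranges of -0.34 to -0.11 for Bdnf by genotype and -0.073 to 0.089 under treatment (positive without TGNT replicate 3 or 4, or TGTR replicate 2, 5 or 6), -0.060 to 0.28 for Ngfr by genotype, -0.070 to 0.0056 for Ntrk2 under treatment (positive without TGNT replicate 1), and -0.19 to -0.12 for Sort1 by genotype. The cause of these turns was not tested. In the genotype comparison each read stood for 0.102 to 0.171 RPM, so genes at a few RPM, such as Ngfr, rest on few counts (9.68 to 31.5 in WTNT rats).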

Other observations

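Ntf3, the gene of neurotrophin-3, was among the most variable genes of both tables. It ranged from 4.46 to 14.1 RPM in WTNT and from 6.34 to 11.5 RPM in TGNT rats, and from 5.57 to 13 RPM in TGNT and from 5.25 to 9.99 RPM in TGTR rats of the treatment table. The SD of its log2 values around the group means lay at percentiles 98.6 and 95.8 of genes with at least 10 counts. The percentiles make no allowance for the number of counts, and Ntf3 had 28 to 106 estimated counts in WTNT rats. The groups overlapped in both comparisons, and neither difference passed the threshold (adjusted p of edgeR = 1 in each).

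Among the 5 neurotrophin genes, 20 relations between pairs were computed over the 10 rats of each table, and none passed the threshold after adjustment. The pair of Bdnf and Sort1 had r = 0.82 in the genotype and r = 0.76 in the treatment table, each with an adjusted exact permutation p of 0.132.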
